A study of Mus musculus with 6 samples.

Results

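The genes described here encode proteins that osteoblasts use to build bone matrix and to fill it with mineral. They are Alpl, Sparc, Spp1, Ibsp, Bglap, Bglap2, Phospho1, Smpd3, Phex and Ifitm5, 10 genes taken by name, and every probe that the platform annotation assigns to 1 of them was used. These were 13 probes of 9 genes, out of 25697 probes and 16593 named genes on the array. No Spp1 probe is listed in the annotation used here, so Spp1 was not analysed here. RNA from calvaria cells, the osteoblast lineage cells of the skull vault, was hybridized to 6 Illumina mouse expression BeadChips. The labels call 3 arrays Mmp13 knockout and 3 wildtype, all of strain C57BL/6. The study describes the arrays otherwise, as cells sorted by green fluorescent protein (GFP) from calvaria cells. Its methods take calvaria cells of such mice from pups a few days old and culture them, without naming the arrays there. By its account the first group carried floxed ERα alleles (ERα f/f) besides GFP:Osx1-Cre and so lacks estrogen receptor α in this lineage, and the control group carried GFP:Osx1-Cre alone. Both groups then carry the transgene, whose GFP set the sort gate and whose promoter is that of Osx1, the gene Sp7. Neither source says whether the arrays of a group come from separate animals or cultures, so p-values measure the spread between these arrays, which may be technical.

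Bone mineral forms in steps. Collagen and proteins such as osteonectin (Sparc) are laid down first, and tissue-nonspecific alkaline phosphatase (Alpl) frees phosphate and removes pyrophosphate, an inhibitor of crystal growth. Osteopontin (Spp1) is an acidic matrix phosphoprotein that binds mineral. Alpl, Sparc and Spp1 are taken here as early osteoblast genes. The other 7 are taken as late: bone sialoprotein (Ibsp), which can seed mineral crystals, osteocalcin from the neighbouring genes Bglap and Bglap2, the vesicle enzymes Phospho1 and Smpd3, the endopeptidase Phex and the small membrane protein Ifitm5. Spp1 is also made by macrophages and osteoclasts, and Alpl, Ibsp, Spp1 and Phospho1 by hypertrophic chondrocytes.

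The promoters of 3 members are shown because they belong to a called late gene with the binding core of RUNX factors (Bglap), a called late gene without it (Ibsp) and an early gene that was not called (Sparc). They are RefSeq sequences of build GRCm38.p6, from 250 bases before to 50 after the transcription start. Bglap lies on the minus strand at chr3:88384417-88384716, Ibsp on the plus strand at chr5:104299037-104299336 and Sparc on the minus strand at chr11:55420031-55420330. Each is written 5′ to 3′ on the strand of its gene. A capital on its own marks the start base, and a run of capitals marks the RUNX core (TGTGGT on either strand, here read as ACCACA).
Bglap: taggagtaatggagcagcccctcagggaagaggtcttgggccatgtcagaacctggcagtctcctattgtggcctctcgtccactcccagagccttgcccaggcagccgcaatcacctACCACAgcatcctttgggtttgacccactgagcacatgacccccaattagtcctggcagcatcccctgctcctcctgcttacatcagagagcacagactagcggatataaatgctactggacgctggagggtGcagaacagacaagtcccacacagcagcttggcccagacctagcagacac
Ibsp: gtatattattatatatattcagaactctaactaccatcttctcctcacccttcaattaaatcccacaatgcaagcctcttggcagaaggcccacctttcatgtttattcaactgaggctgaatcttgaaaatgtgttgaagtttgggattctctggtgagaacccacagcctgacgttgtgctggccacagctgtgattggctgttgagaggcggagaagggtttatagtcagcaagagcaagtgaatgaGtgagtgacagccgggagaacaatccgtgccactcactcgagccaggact
Sparc: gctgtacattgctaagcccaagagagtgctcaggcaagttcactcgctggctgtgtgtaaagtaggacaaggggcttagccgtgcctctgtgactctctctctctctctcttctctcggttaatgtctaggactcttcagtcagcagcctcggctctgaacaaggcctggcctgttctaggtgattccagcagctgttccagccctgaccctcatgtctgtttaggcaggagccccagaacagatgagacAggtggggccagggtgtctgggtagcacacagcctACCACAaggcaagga
The RUNX core lay 132 bases before the start of Bglap and 35 bases after that of Sparc. The promoter table held 10 promoters of 8 members, and 3 of the 10 had the core, the other one being that of Spp1, 128 bases before its start. Over all 32851 promoters of the table the share was 16.8%. Neither of the 2 listed Alpl promoters had it. The AP-1 motif TGANTCA, searched on both strands, was found in 1 member promoter, that of Phospho1 (7.81% of all promoters), and the full palindromic estrogen response element in 0 (0.07% of all). These are matches of letters and no measure of binding.

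Before the members, the labels and arrays were checked. Mmp13, the gene named in the labels, was higher on the arrays labelled knockout. Its probe ILMN_2737685 read 12.41, 12.90 and 12.78 on them and 9.07, 9.53 and 9.82 on the arrays labelled wildtype (log2 normalized signal, replicates 1 to 3), a 9.34-fold difference (adjusted p = 0.00017, limma). The direction is opposite to the label Mmp13 knockout. The study itself reports Mmp13 as its most up-regulated gene in cells without ERα. Esr1, which encodes estrogen receptor α, was not detected by either of its 2 probes on any array (detection p from 0.164 to 0.984). It thus could not check the study's name for the groups. The label names are kept here, as labelled knockout and labelled wildtype, and each direction below rests on them. Detection p is the scanner software's p-value for a signal above the negative control beads, and 40.2% to 43.6% of probes passed 0.01 on each array. Pearson's r over all probes was 0.995 to 0.997 between arrays labelled knockout, 0.972 to 0.992 between arrays labelled wildtype and 0.96 to 0.986 across groups. Wildtype replicate 2 stood more than 2 log2 from the mean of the other arrays of its group at 34 probes, replicate 3 at 18 and replicate 1 at 2, against 0 probes for each array labelled knockout.

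Of the 13 member probes, 7 were detected on at least 3 of the 6 arrays and tested, and 5 of them, of 4 genes, were higher on the arrays labelled knockout. They were Ibsp, Bglap (2 probes), Bglap2 and Alpl. No member probe was lower, and the 2 Sparc probes did not pass the test. Among all 11089 tested probes 9.69% were higher and 9.51% lower by the same rule (limma on the authors' log2 values, adjusted p under 0.05). At 5 of the 7 tested member probes the groups did not overlap, with the arrays labelled knockout above, as at 20.3% of all tested probes. Among the early genes 1 of 3 tested probes was higher, and among the late genes 4 of 4. Another 6 late probes were not tested, among them the only probes of Phospho1, Smpd3, Phex and Ifitm5. The 4 are the Ibsp probe and osteocalcin probes, which may share signal. A probe that passed the detection filter only through the arrays where it was bright had to differ, and the tested Ibsp probe is such a case. Bglap ILMN_3101908, detected on 1 of 3 arrays labelled wildtype, also needed the bright arrays to pass. These counts thus do not stand as evidence on the set. In RNA from many cells, fewer cells of a type and less RNA per cell cannot be told apart.

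**Figure D1:**
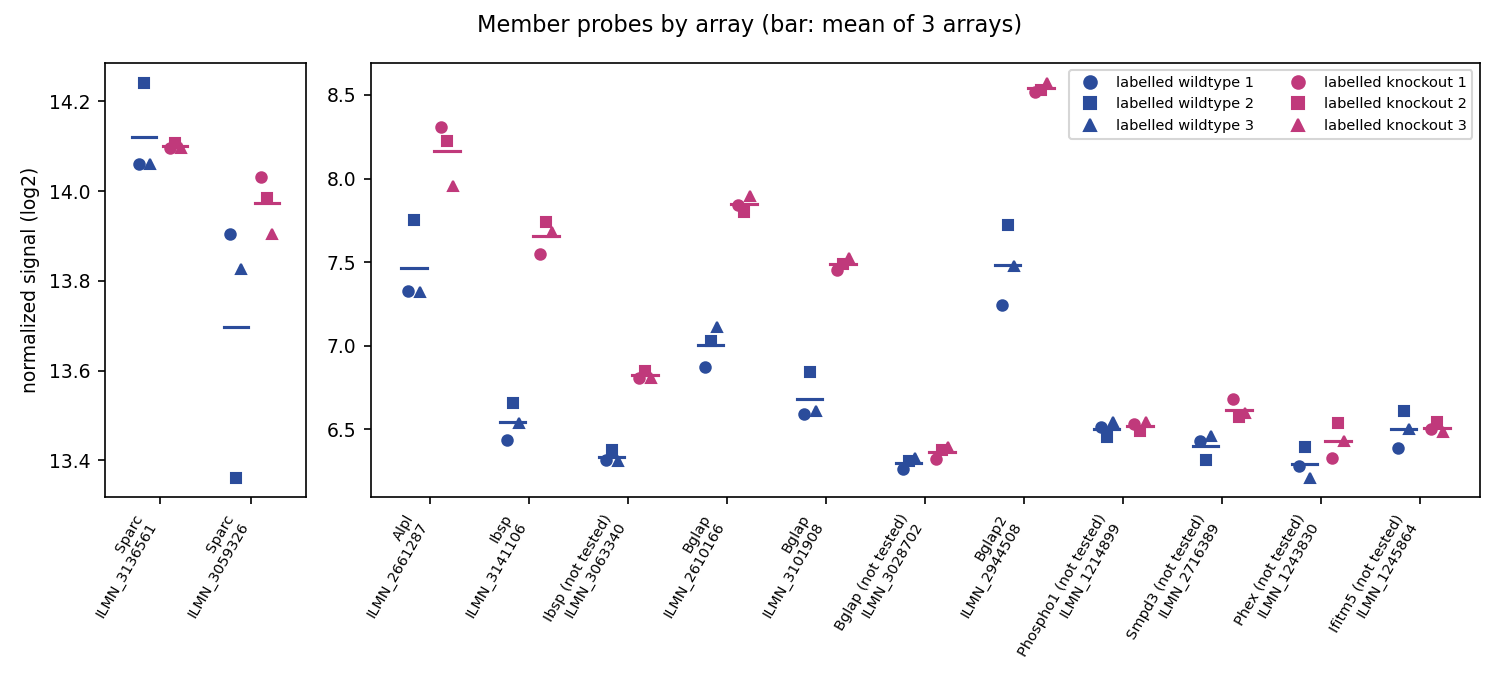
Normalized signal (log2) of the 13 member probes on each array, with replicates as symbols and the mean of the 3 arrays of a group as a bar. The lowest array labelled knockout lay above the highest labelled wildtype by 0.21 to 0.795 at the called probes of Alpl, Bglap and Bglap2, and the groups overlapped at Sparc ILMN_3136561.

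Ibsp was measured above background only on the arrays labelled knockout. Its probe ILMN_3141106 read 7.55, 7.74 and 7.68 on the arrays labelled knockout and 6.43, 6.66 and 6.54 on those labelled wildtype. The groups did not overlap. The probe was detected on 3 of 3 arrays labelled knockout and on 0 of 3 labelled wildtype (detection p of 0.283, 0.0451 and 0.109 there), so it passed the filter only through the arrays where it was bright, and its fold is given as a bound. The level was at least 1.82-fold higher on the authors' scale, with the undetected arrays at their lowest detected signal, and at least 3.1-fold higher after background correction. The adjusted p was 0.00046 (limma), and 0.00031 when all probes were tested with no detection filter. Both set detected signals against background on the arrays labelled wildtype, so they do not measure the spread of the Ibsp level there. The second Ibsp probe, ILMN_3063340, was detected on 2 arrays labelled knockout and on none labelled wildtype and was not tested. It read 6.81, 6.85 and 6.81 on the arrays labelled knockout and 6.32, 6.38 and 6.31 on those labelled wildtype. Its groups did not overlap either, and its bound was at least 1.02-fold.

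Osteocalcin was measured through Bglap and Bglap2, neighbours on chromosome 3 with near-identical sequence. Probe sequences were not used here, so signal shared between them cannot be told apart. Bglap probe ILMN_2610166 was detected on all 6 arrays and read 7.84, 7.80 and 7.90 on the arrays labelled knockout against 6.87, 7.03 and 7.11 on those labelled wildtype. The spread within the arrays labelled knockout (SD 0.05) was smaller than within those labelled wildtype (SD 0.12), and the difference was 0.84 ± 0.09 (SE, n = 3 per group), a 1.79-fold higher level (adjusted p = 0.0011, limma). Its unnormalized scanner signals, 171, 245 and 240.7 against 117.6, 137.5 and 148.4, did not overlap either. The 245 and 240.7 belong to a pair of arrays that share a heading in the scanner table, so their replicate numbers are not known.

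A second Bglap probe, ILMN_3101908, moved by a like amount, 7.45, 7.49 and 7.52 against 6.59, 6.84 and 6.61. It was 1.75-fold higher (difference 0.81 ± 0.09 SE, adjusted p = 0.0016, limma). Only 1 of 3 arrays labelled wildtype detected it (detection p of 0.0689, 0.00877 and 0.0539 there). It thus passed the filter through the arrays where it was bright, and its fold rests on wildtype signals near background. The third Bglap probe, ILMN_3028702, was detected on no array (detection p from 0.37 to 0.796). Bglap2 probe ILMN_2944508 was detected on all arrays and read 8.52, 8.53 and 8.57 on the arrays labelled knockout. On the arrays labelled wildtype it read 7.24, 7.72 and 7.48, a wider spread with its top value in replicate 2. The difference was 1.06 ± 0.12 (SE, n = 3 per group), or 2.08-fold (adjusted p = 0.0017, limma).

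Alpl, the early phosphatase, was higher as well, with the narrowest gap of the called probes. ILMN_2661287, detected on all 6 arrays, read 8.31, 8.23 and 7.95 on the arrays labelled knockout and 7.33, 7.75 and 7.32 on those labelled wildtype. The nearest arrays, knockout replicate 3 and wildtype replicate 2, were 0.21 apart. The difference was 0.70 ± 0.15 (SE, n = 3 per group), or 1.62-fold (adjusted p = 0.018, limma). On the scanner's own scale the groups overlapped (226.7, 338.5 and 251.3 against 162.2, 246.1 and 168.4), wildtype replicate 2 being above knockout replicate 1. The call was lost without knockout replicate 1 (0.62, adjusted p = 0.078), without knockout replicate 2 (0.66, adjusted p = 0.082), without wildtype replicate 1 (0.63, adjusted p = 0.08) and with median scaling in place of quantile normalization (0.65, adjusted p = 0.16).

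Sparc, the other early gene, was bright on every array. Probe ILMN_3136561 read 14.10, 14.11 and 14.10 on the arrays labelled knockout and 14.06, 14.24 and 14.06 on those labelled wildtype. The groups overlapped, and the difference of −0.02 had a 95% confidence interval of −0.21 to 0.17 (adjusted p = 0.87, limma). Its scanner signals were 13887.5, 19342.8 and 17164.4 against 17784.7, 20671.4 and 17447.9. Quantile normalization gives equal ranks equal values. Knockout replicates 1 and 3 shared 14.0954, and wildtype replicates 1 and 3 shared 14.0603. Median scaling gave −0.017 with an SE of 0.176, against 0.082 in the authors' table. The narrow interval thus does not show that Sparc was unchanged. Probe ILMN_3059326 read 14.03, 13.98 and 13.91 against 13.91, 13.36 and 13.83, a difference of 0.28 with an interval of −0.07 to 0.62 (adjusted p = 0.22, limma). Wildtype replicate 2 was the highest array of its group at the first Sparc probe and the lowest at the second, and without it the differences were 0.04 and 0.11.

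**Figure D2:**
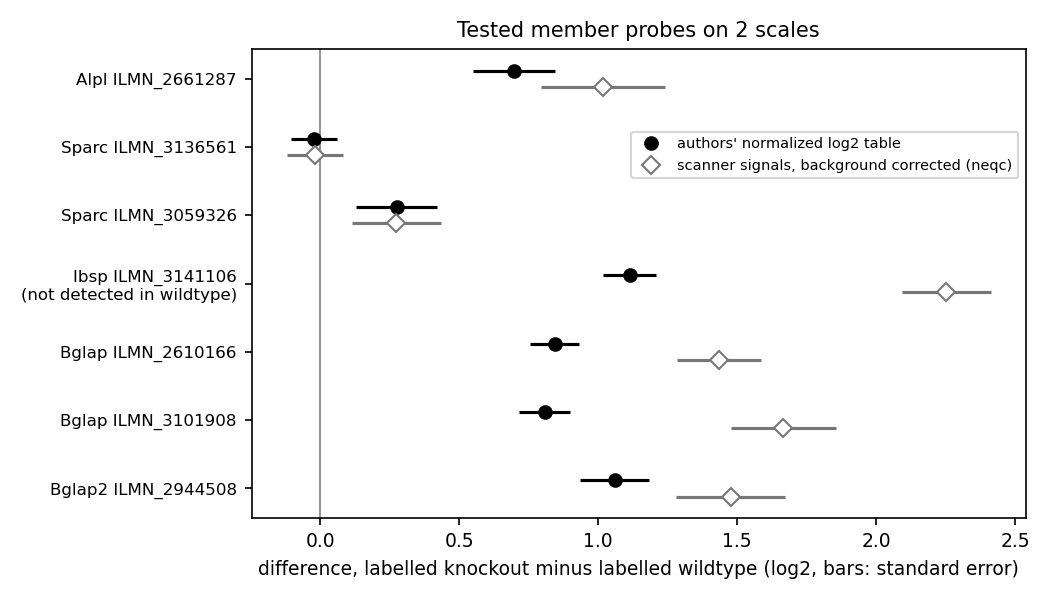
Difference between groups (labelled knockout minus labelled wildtype, log2) of the 7 tested member probes, with standard errors as bars, from the authors' normalized table (filled circles) and from background corrected scanner signals (open diamonds). The called probes of Alpl, Bglap and Bglap2 lie at 0.70 to 1.06 in the authors' table and at 1.02 to 1.67 after background correction, while Ibsp is marked as not detected on the arrays labelled wildtype, so that its position is no estimate of a fold.

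The authors' table holds no background correction, which draws the fold of a dim probe towards 1. Correction used neqc, a limma method, with the background of the negative controls inferred from the detection p-values. After it Alpl was 2.02-fold higher (adjusted p = 0.025, limma), Bglap 2.7-fold and 3.17-fold (adjusted p = 0.0018 and 0.0022) and Bglap2 2.78-fold (adjusted p = 0.0041). The 3.17-fold is that of ILMN_3101908, detected on 1 of 3 arrays labelled wildtype. On that scale 8.86% of all tested probes were higher. The same 5 member probes were called.

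The remaining late genes, Phospho1, Smpd3, Phex and Ifitm5, had 1 probe each, and none was detected on any array. Phospho1, a phosphatase that releases phosphate inside matrix vesicles, read 6.53, 6.49 and 6.54 on the arrays labelled knockout against 6.51, 6.45 and 6.54. Smpd3, a sphingomyelinase needed for mineralization in mice, read 6.68, 6.57 and 6.60 against 6.43, 6.32 and 6.46. The Smpd3 groups did not overlap, but its detection p was 0.0163 or higher on every array, and in a fit of all probes with no filter its adjusted p was 0.096 (limma). Phex, whose loss causes phosphate wasting, read 6.33, 6.54 and 6.43 against 6.28, 6.39 and 6.21. Ifitm5, a gene of mineralizing osteoblasts, read 6.50, 6.54 and 6.48 against 6.39, 6.61 and 6.50. The groups overlapped at Phospho1, Phex and Ifitm5, and at these signals a difference in any of the 4 genes was not detectable.

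**Figure D3:**
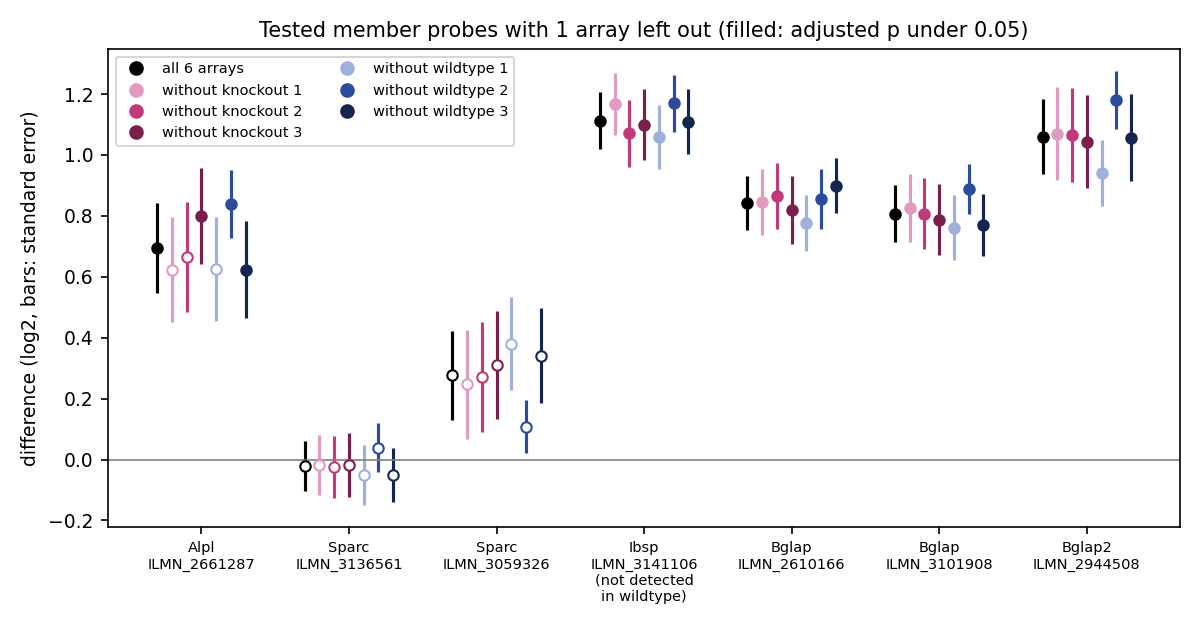
Difference between groups (log2, bars are standard errors) of the 7 tested member probes with all 6 arrays and with each array left out, filled where the adjusted p was under 0.05. The Bglap and Bglap2 probes were filled in every refit and Alpl was open in 3, and Ibsp is marked as not detected on the arrays labelled wildtype.

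Genes around mineral balance moved both ways. Of 9 listed regulators of phosphate, pyrophosphate and crystal growth, 7 had a probe, 4 were tested, 2 were higher and 1 lower (1 and 0 with median scaling). Mgp, a matrix protein that inhibits calcification, read 12.78, 12.71 and 12.68 on the arrays labelled knockout against 11.59, 11.83 and 11.64 (difference 1.03 ± 0.09 SE, adjusted p = 0.00049, limma). Slc20a1, a phosphate transporter, was lower at 8.32, 8.19 and 8.37 against 9.26, 9.20 and 8.77 (difference −0.78 ± 0.14 SE, adjusted p = 0.0099), a call lost without knockout replicate 2 (−0.73, adjusted p = 0.054). Slc20a2, the related transporter, was higher by 0.42 (adjusted p = 0.037), a call lost under 8 of 16 alternatives, among them each refit without knockout replicate 1, 2 or 3 or wildtype replicate 1 (0.38 to 0.47, adjusted p from 0.087 to 0.14). Nt5e, which makes adenosine outside the cell, differed by 0.04 (adjusted p = 0.75). Ahsg, Abcc6 and Enpp6 were detected on no array, and Enpp1 and Ankh were not analysed here.

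Among 16 other osteoblast matrix genes 13 were tested, 5 higher and 1 lower, and the count of higher genes was 3 without any 1 of the arrays labelled knockout and 1 with median scaling. Omd and Ogn, small leucine-rich proteoglycans of bone, were higher by 1.00 (adjusted p = 0.00074, limma) and 0.96 (adjusted p = 0.0013). Mmp14, a membrane-bound collagenase, was higher by 0.58 (adjusted p = 0.012, but 0.055 without knockout replicate 2). Tenascin C (Tnc) was lower, with a difference of −1.59 (adjusted p = 0.00041), and the count of lower genes was 2 without wildtype replicate 2 or 3. Of the collagen I genes, Col1a1 differed by −0.17 (adjusted p = 0.55, but −0.40 and 0.028 without wildtype replicate 3) and Col1a2 by 0.42 (adjusted p = 0.045). The Col1a2 call was lost under 10 of 16 alternatives, among them each refit without an array other than wildtype replicate 2 (0.33 to 0.46, adjusted p from 0.055 to 0.17). The median difference was 0.21 over these 13 genes and −0.02 over all tested probes.

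Among transcription factors of the lineage the called genes were lower. Of 12 listed, 7 were tested, 3 were lower and 0 higher (1 higher without wildtype replicate 2, 2 without replicate 3, and 1 lower with median scaling). Among all tested probes 9.51% were lower. Atf4 (0.82, adjusted p = 0.15, limma) and Cbfb (0.43, adjusted p = 0.093) were not called, though their arrays labelled knockout all lay above those labelled wildtype. Sp7, the osteoblast factor whose promoter drives the transgene of the sort, read 9.65, 9.48 and 9.51 on the arrays labelled knockout against 10.45, 10.24 and 10.17 (difference −0.74 ± 0.10 SE, adjusted p = 0.0033, limma, and 0.063 with median scaling). Msx1 and Msx2, homeobox factors of the developing skull, differed by −0.93 (adjusted p = 0.0076, and 0.09 with median scaling) and −0.85 (adjusted p = 0.00049). Runx2, Dlx6 and Fosl2 were not analysed here. Of 9 osteocyte genes, Dmp1, Mepe, Sost, Fgf23 and Dkk1 were detected on no array. Of the 4 tested, Cd44, an adhesion receptor that many cell types make, was lower (difference −1.73, adjusted p = 0.00012) and none was higher, with 2 lower without wildtype replicate 2 or 3.

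**Figure D4:**
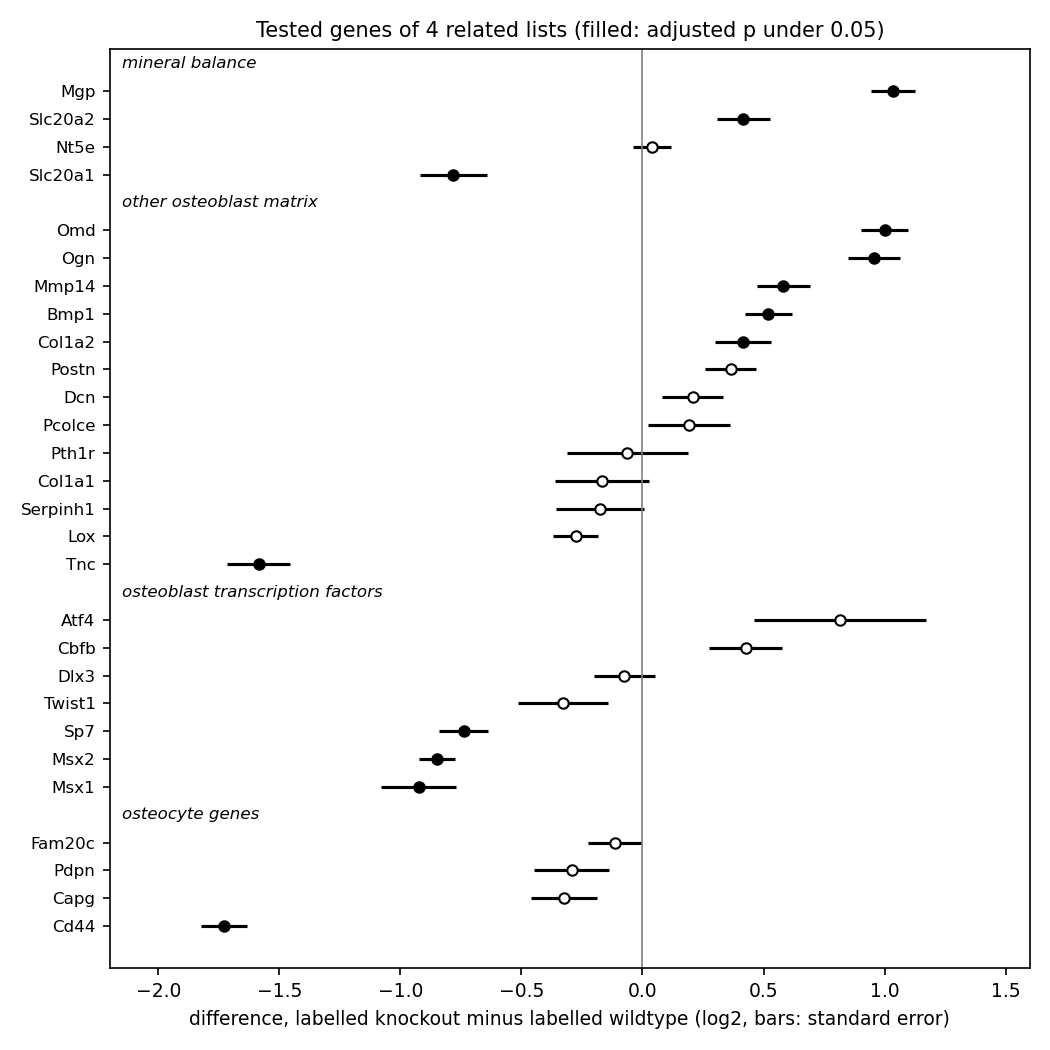
Difference between groups (labelled knockout minus labelled wildtype, log2, bars are standard errors) of every tested gene of 4 related lists, filled where the adjusted p was under 0.05. Mgp, Omd and Ogn lie near 1, while Cd44 and Tnc lie furthest below 0.

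Among markers of other cell types, mainly those of macrophages differed between the groups. Of 19 macrophage and osteoclast markers, 16 had a probe, 11 were tested and 10 were lower on the arrays labelled knockout, 3 under a filter that asks for detection on all 6 arrays. Among all tested probes 9.51% were lower. Lyz2 (lysozyme), Fcer1g, Cd14 and Adgre1 differed by −1.46, −1.39, −1.12 and −1.09 (limma, all past the threshold). Ctsk, the tested marker that was not called, averaged 12.16 on the arrays labelled knockout against 12.04 (adjusted p = 0.31, limma). It was the brightest of the 11. The summed normalized signal of the tested markers, Ctsk included, was 6822 to 7232 on the arrays labelled knockout and 9319 to 10678 on those labelled wildtype. Tyrobp and C1qa, among the 10, were detected on the arrays labelled wildtype alone, and Ctss and C1qb on only 1 array labelled knockout. These markers passed the filter through the arrays where they were bright, so the count of 10 does not stand as evidence on the set. Ptprc, Itgam, Acp5 and Dcstamp were detected on no array, and Oscar, detected on 1, was not tested. Of 14 cartilage markers 5 were tested and 2 were called higher (1 without knockout replicate 1 or 2, 0 with median scaling), and 8 were detected on no array. Matn4 was higher by 0.75 (adjusted p = 0.002, limma), and Col11a1 was detected on 3 of 3 arrays labelled knockout and 0 of 3 labelled wildtype, so it passed the filter only through the arrays where it was bright. The summed signal of the tested cartilage markers was 2096 to 2460 against 1701 to 4017, so the groups overlapped. None of 5 endothelial markers with a probe was tested. The part of these markers in the members' differences was not tested.

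The genes whose pattern over the 6 arrays was most like that of Ibsp ILMN_3141106, by the root mean square difference of centred log2 values (those of Ibsp on the arrays labelled wildtype being not above background), were Cx3cl1 (0.05), Psmb9 (0.05), Tgm2 (0.05), Clu (0.06) and Rad54b (0.06). They encode a chemokine, a proteasome subunit, a transglutaminase, clusterin and a DNA repair protein. Bglap and Bglap2 were left out of that search as members. The 6 arrays fall into 2 groups, so likeness over them mostly reads a like difference between the groups, here 1.08 to 1.18 in the 5 genes.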

How the data were processed

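Signals of 6 BeadChips (3 arrays labelled Mmp13 knockout, 3 wildtype) were used. The intensity values are unnormalized signals that the authors extracted with BeadStudio, and each has a detection p-value deposited beside it. The log2 values are the authors' normalized table, made with the lumi package by quantile normalization (version not given in the sources used here), and its sorted values lay within 0.015 of the mean of the sorted log2 signals. The tables were linked by ranks on the 4 arrays both name (25697 of 25697 probes one to one), and a pair of arrays with a shared heading was used by group. Gene symbols come from the platform annotation (23978 probes with 1 gene, 1719 not listed), brought up to date through RefSeq gene IDs.

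Groups were compared with lmFit and eBayes of limma 3.58.1 in R 4.3.3 on the log2 table, over probes with detection p under 0.01 on at least 3 arrays (11089), with Benjamini-Hochberg adjustment over all of them and a threshold of 0.05. The smallest p that an exact permutation of 3 against 3 arrays can give is 0.1. The array number limits the precision. The brightest probe stood for a list gene. The genes named are the members, Mmp13 and Esr1, up to 4 called genes of each list, all mineral balance genes, both collagen I genes, the uncalled factors Atf4 and Cbfb and the 5 most like Ibsp. The members and lists were chosen with earlier results of these data known. The alternatives were neqc background correction (offset 16), median scaling, cyclic loess, no, a looser (detection p under 0.05) and a stricter filter, eBayes with trend and robust, array weights of 2 kinds, a replicate block, and each array left out. The test was also run on simulated data with known changes, whose means and spreads came from these arrays.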

Additional observations from a re-analysis of the deposited data

How the results depend on the processing

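The 7 tested member probes gave 110 values under the alternatives, of which 102 kept direction and side of the threshold, 4 lost the call (all Alpl) and 4 changed sign. The sign changes were all at Sparc ILMN_3136561, with 0.071 under cyclic loess, 0 with array weights, 0.028 with gene by gene array weights and 0.039 without wildtype replicate 2 (from −0.051 to 0.039 with 1 array left out). Nt5e ran from 0 (without wildtype replicate 2) to 0.075 with 1 array left out. Differences of the called probes detected on at least 1 array of each group ran from 0.78 to 1.43 and 0.76 to 1.67 for Bglap, 0.94 to 1.48 for Bglap2 and 0.62 to 1.02 for Alpl. Member probes called higher numbered 3 under the stricter filter, which drops the Ibsp probe and Bglap ILMN_3101908, 4 to 5 with 1 array left out, and 6 with no or a looser filter, which admits the second Ibsp probe.

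With median scaling the calls of Slc20a1, Slc20a2, Ogn, Mmp14, Col1a2, Sp7, Msx1, Matn4 and Col11a1 were lost as well (adjusted p from 0.05 to 0.52). Counts over all probes moved more. Of 1074 higher and 1055 lower probes, 215 and 143 were called with median scaling. Gene by gene array weights, added after seeing the data because the default estimate stopped before its tolerance was reached, called 2435 and 2763, and the default weights 1231 and 1206. With 1 array left out the counts ran from 448 (without knockout replicate 3) to 1842 (without wildtype replicate 3) higher and from 392 to 1967 lower for the same arrays. The cause was not tested. With the replicate number as a block 718 were higher and 613 lower, and it changed no call of a member. Same-numbered arrays did not deviate together (r = 0.105, −0.0552 and −0.0501), so the numbers were not taken as pairs. Signals near background limit what can be said of Phospho1, Smpd3, Phex and Ifitm5.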
